A study of Mus musculus with 18 samples.

Results

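The PYHIN family of the mouse, also called the Ifi200 family, was followed at the mRNA level in bone marrow-derived macrophages (BMDMs) that carried 1 or no working copy of Prep. The listed symbols were Ifi203, Ifi204, Ifi205, Ifi207, Ifi209, Ifi211, Aim2 and Mnda, taken as rows of the count table wherever the table held them. Of these 8 symbols, 7 were among the 16314 gene symbols of the table, and all 7 passed the expression filter and were tested among 12021 genes. Mnda was not a symbol of the table. RefSeq gives Mnda as an older symbol of Ifi211, so the values under Ifi211 are the closest ones shown here. Among the other mouse PYHIN genes, Ifi202b, Ifi206, Ifi208, Ifi213, Ifi214 and Mndal also had a row, and 5 of these 6 were tested.

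BMDMs came from Prep-/- mice and their Prep+/- littermates, which served as controls and lack a copy of Prep themselves. The knockout is global, on a C57BL6/J background, so every cell of the culture carried the genotype, and the age of the bone marrow donors is not given in the sources used here. Marrow cells were grown for 7 days with 50 ng/ml M-CSF, the growth factor that drives macrophage differentiation. Cells were then left unstimulated (M0), or stimulated for 24 h with 50 ng/ml LPS (M1), or with IL-4 and IL-13 at 20 ng/ml each (M2). This gave 6 groups of 3 bulk RNA-seq libraries, 1 group for each genotype and state. The study calls its replicates biological, but neither it nor the labels say whether those of a group came from separate animals or cultures, so p-values measure only the spread between these libraries.

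PYHIN proteins typically pair a pyrin domain, which binds other pyrin domains, with HIN domains, which bind double-stranded DNA, although not every member of the family has both. Aim2 is the cytosolic DNA sensor of the family that recruits the adaptor ASC and starts the caspase-1 inflammasome, while most Ifi200 proteins are found in the nucleus. Many of the genes are induced by type I and type II interferon, and macrophages express many of them. LPS acts on Toll-like receptor TLR4 and makes macrophages secrete interferon-β, whereas IL-4 and IL-13 signal through STAT6.

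The members lie side by side on chromosome 1, where copies arose from each other by duplication. In GRCm39 the 13 protein-coding PYHIN genes span chr1:173178445-173859456, a stretch of 681 kb that begins with Aim2 on the plus strand and ends with Ifi205 on the minus strand. The order between them is Ifi206, Ifi214, Ifi213, Ifi209, Ifi208, Ifi207, Ifi204, the pseudogene Ifi203-ps, Mndal, Ifi211, Ifi203 and Ifi202b. Promoter sequences from RefSeq, on the older build GRCm38.p6 and covering 300 bases around each start site, were found for 6 of the 7 members and for all 6 of the other PYHIN genes of the table. Ifi204 had no match. Searched on both strands, the letters GAAANNGAAA, the core of the interferon-stimulated response element (ISRE), were present in 3.44% of 32851 promoters. They were present in a promoter of Ifi203, Ifi205, Ifi207 and Ifi211 among the 6 members, and of Ifi206, Ifi208, Ifi213, Ifi214 and Mndal among the others. The stretches of 40 bases around this match are shown because their letters recur from copy to copy. Each is read 5′ to 3′ on the strand of its gene, with GRCm38.p6 coordinates and the ISRE core in capitals.
Ifi203, chr1:173942503-173942542, minus strand: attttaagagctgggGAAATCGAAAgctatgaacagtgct
Mndal, chr1:173880199-173880238, minus strand: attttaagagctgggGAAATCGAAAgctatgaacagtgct
Ifi211, chr1:173913059-173913098, minus strand: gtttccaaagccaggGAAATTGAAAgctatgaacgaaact
Ifi205, chr1:174031865-174031904, minus strand: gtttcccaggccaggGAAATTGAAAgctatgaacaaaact
Ifi207, chr1:173741826-173741865, minus strand: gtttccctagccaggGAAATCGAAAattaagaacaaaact
Ifi208, chr1:173673592-173673631, plus strand: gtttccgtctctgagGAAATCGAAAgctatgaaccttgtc
Ifi213, chr1:173599321-173599360, minus strand: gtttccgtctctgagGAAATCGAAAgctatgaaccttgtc
Ifi206, chr1:173491334-173491373, minus strand: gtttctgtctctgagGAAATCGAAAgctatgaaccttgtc
Ifi214, chr1:173536012-173536051, minus strand: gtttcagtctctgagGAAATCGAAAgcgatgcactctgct
Ifi209, chr1:173630765-173630804, plus strand: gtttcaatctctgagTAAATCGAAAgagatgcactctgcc

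The windows of Ifi203 and Mndal had the same letters throughout, as had those of Ifi208 and Ifi213. The first base of the core lay at -35 from the start site in Ifi203, at -37 in Ifi211, at -41 in Ifi207 and at -134 in Ifi205, which had another match on the opposite strand at 23 bases after the start. Ifi203 held it in 1 of its 2 RefSeq promoters, and Mndal held a further match on the opposite strand of its other promoter, at -54. In Ifi209 the capitals mark the closest stretch, which differs from the core by G1T, with positions counted from the first base of the core. A match with at most 1 mismatch was present in 35.4% of all promoters. Aim2 had no ISRE core in its window and held GAGGAA, the core of the PU.1 motif, at -140 and -113. GAGGAA was present in 28.3% of all promoters, and in Ifi206, Ifi208, Ifi213 and Ifi214 it runs into the first letters of the ISRE core. Among the members' promoters, none held TTCNNNGAA, the GAS element (8.3% of promoters), or GGGNNTTTCC, a form of the κB site (1.63%). These matches describe the letters of the windows and were not tested as binding sites.

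The duplications also limit what counts of single genes can show. Among annotated transcripts, 912 bases of Ifi211 matched Ifi205 at 99.8%, and 1487 bases of Ifi204 matched Ifi211 at 96.7%. Likewise, 1799 bases of Ifi203 matched the pseudogene Ifi203-ps at 96.8%, 1946 bases of Ifi209 matched Ifi214 at 96.9%, and 933 bases of Ifi207 matched Ifi204 at 92.0%. How the authors counted reads that match several genes is not given in the sources used here, so the split of reads between these copies is uncertain. Aim2 had no such match, but Cadm3 overlaps it on the opposite strand, and the use of strand in counting is not given either.

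Library totals ranged from 19068237 to 22598279 counts, and 13096 to 13807 genes were detected in each. Prep, the targeted gene, ranged from 551 to 900 normalized counts in Prep+/- libraries and from 31.3 to 68.1 in Prep-/- libraries, so every library matched its genotype label. All 8 macrophage markers were detected. Over all libraries, the summed granulocyte and precursor markers ranged from 24.8 to 154 CPM with Ly6g at 3 counts or fewer, the monocyte markers from 12.8 to 134, the dendritic cell markers from 147 to 2210, the stromal markers from 0.0839 to 17.4, and the B-cell markers from 0.959 to 11.5 CPM with Ms4a1 at 3 counts or fewer. All listed markers in the table of T and NK cells, red cells and mast cells were at 3 counts or fewer in every library. To make libraries comparable, each count was scaled by TMM to the mean effective size of the 18 libraries, which gives the normalized counts used here. In bulk RNA, fewer cells of a type and less RNA per cell cannot be told apart. This holds for the marker sums in every comparison, where a shift can mean other cell numbers or other expression in the same cells.

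Ifi204, often treated as the mouse counterpart of human IFI16, rose with LPS and with loss of Prep. Resting Prep+/- libraries held 789, 807 and 1030 normalized counts of Ifi204 (replicates 1, 2 and 3, here and in the values that follow), and resting Prep-/- libraries held 3600, 2030 and 2540. With LPS, Prep+/- libraries held 9450, 9680 and 10600 and Prep-/- libraries 20300, 11200 and 15600. With IL-4 and IL-13, Prep+/- libraries held 1770, 1190 and 1140 and Prep-/- libraries 2100, 1780 and 1570. All Prep-/- libraries lay above all Prep+/- libraries in M0 and M1, and the genotypes overlapped in M2.

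Ifi209 showed the same layout with a wider range. In M0 its normalized counts went from 252, 208 and 301 with Prep+/- to 2020, 1130 and 1010 with Prep-/- BMDMs. In M1 they went from 5520, 5000 and 5890 to 19000, 9370 and 12600. In M2, Prep+/- libraries held 362, 243 and 200 and Prep-/- libraries 464, 416 and 278. Thus Prep-/- M0 stood apart from the low groups and still below every LPS-treated library.

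Ifi205 is reported to control the expression of the inflammasome adaptor ASC in macrophages, and it had few reads without LPS. Resting Prep+/- libraries held 17.4, 9.19 and 17.8 normalized counts, against 171, 59.4 and 68.4 in resting Prep-/- libraries. With LPS these were 1890, 1680 and 2030 for Prep+/- and 8760, 3360 and 5580 for Prep-/- BMDMs. In M2, Prep+/- libraries held 23.5, 10.7 and 19.8 and Prep-/- libraries 18.1, 8.46 and 14.2. Replicate 1 was far above the other Prep-/- libraries in both M0 and M1.

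For Ifi211, resting Prep+/- libraries held 146, 193 and 243 normalized counts and resting Prep-/- libraries 943, 439 and 449. With LPS the counts were 4060, 4010 and 4290 for Prep+/- and 9840, 5300 and 8200 for Prep-/- BMDMs. In M2, Prep+/- libraries held 379, 213 and 255 and Prep-/- libraries 259, 239 and 248. The M2 libraries of both genotypes overlapped with those of Prep+/- M0, and all of them lay below Prep-/- M0.

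Ifi203 spanned a narrower range. In M0 its normalized counts went from 768, 701 and 841 with Prep+/- to 2940, 2370 and 1920 with Prep-/- BMDMs. In M1 they went from 2580, 2270 and 2660 to 7160, 3770 and 5150. In M2, Prep+/- libraries held 703, 590 and 542 and Prep-/- libraries 898, 1040 and 531. Unstimulated Prep-/- libraries overlapped with LPS-treated Prep+/- libraries, which none of the members above did.

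Ifi207, whose nuclear protein has been linked to cytokine transcription in macrophages, was expressed in every state. Resting Prep+/- libraries held 1860, 2010 and 2410 normalized counts, against 4110, 3150 and 2850 in resting Prep-/- libraries. With LPS these were 2710, 2730 and 3150 for Prep+/- and 6760, 3690 and 4140 for Prep-/- BMDMs. In M2, Prep+/- libraries held 2140, 1870 and 1830 and Prep-/- libraries 2470, 2420 and 2320. The genotypes did not overlap in any state, although the gap in M2 was small.

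Aim2, the inflammasome sensor, kept to the narrowest range of the members. Resting Prep+/- libraries held 603, 618 and 655 normalized counts and resting Prep-/- libraries 718, 792 and 611. With LPS the counts were 665, 559 and 644 for Prep+/- and 1280, 921 and 1010 for Prep-/- BMDMs. In M2, Prep+/- libraries held 490, 519 and 546 and Prep-/- libraries 663, 722 and 595. Prep-/- M1 stood above and Prep+/- M2 below all other groups, which overlapped with each other.

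**Figure D1:**
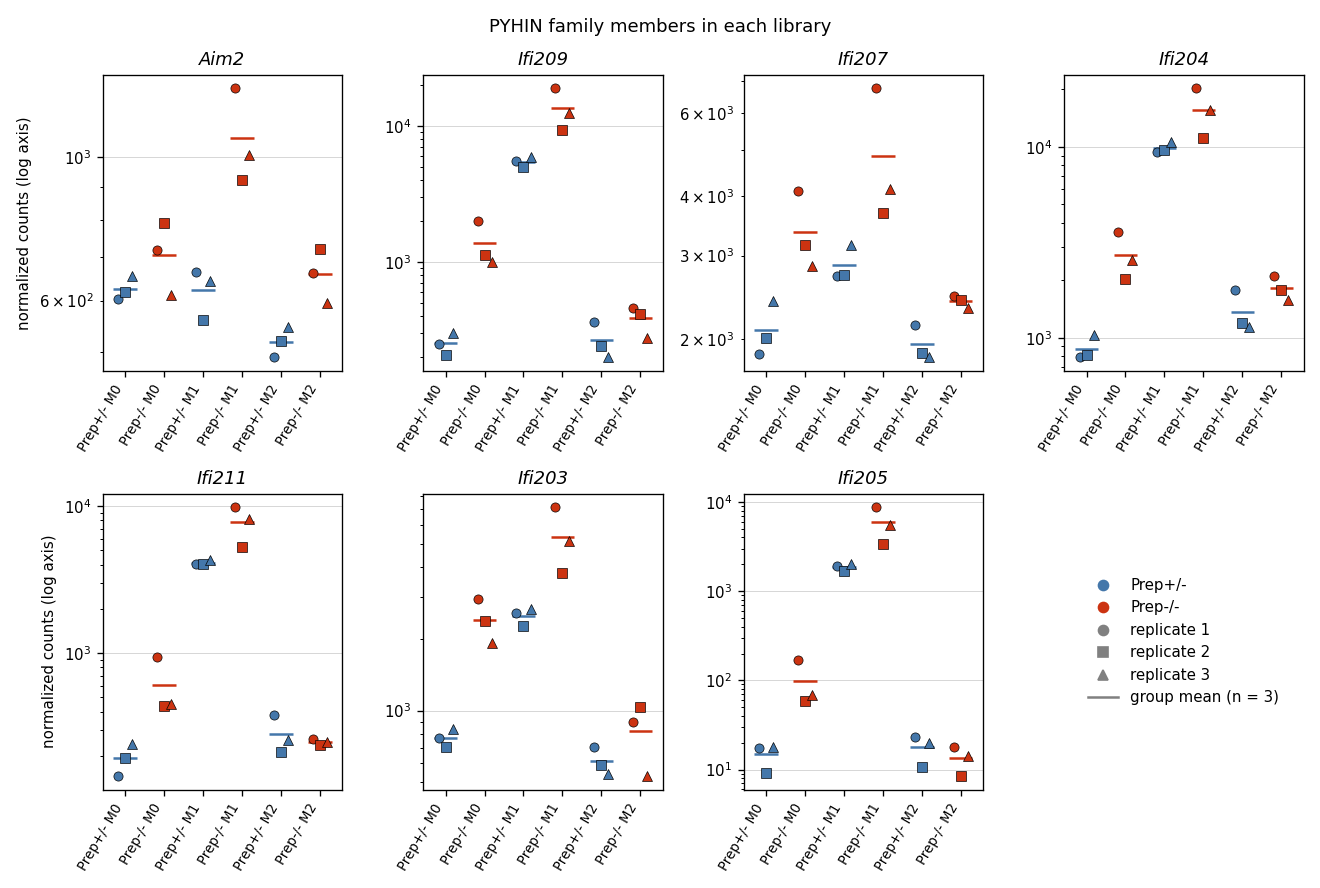
Normalized counts (log axis) of the 7 members in each of the 18 libraries, by genotype and state, with 1 symbol per replicate and a line at the mean of the 3 libraries. Prep-/- M1 is the highest group in every panel, and its replicate 1, at 8760 for Ifi205 and 1280 for Aim2, is the highest library of all.

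Ordered by mean, Prep-/- M1 came first for all 7 members, with means of 15700 ± 4550 for Ifi204, 13700 ± 4880 for Ifi209, 7780 ± 2300 for Ifi211, 5900 ± 2710 for Ifi205, 5360 ± 1700 for Ifi203, 4860 ± 1660 for Ifi207 and 1070 ± 189 for Aim2 (SD, n = 3 each). For Ifi204, Ifi205, Ifi209, Ifi211 and Ifi203 the next groups were Prep+/- M1 and then Prep-/- M0, and of these 5 genes only Ifi203 had an overlap between them. For Ifi207, Prep-/- M0 overlapped with both M1 groups. At the low end, Prep+/- M0 and both M2 groups each overlapped with the next for Ifi203, Ifi205, Ifi207, Ifi209 and Ifi211, in an order that differed from gene to gene. All Prep+/- M2 libraries lay above those of Prep+/- M0 for Ifi204, which held for 22.6% of all genes, and below them for Aim2, which held for 23.3%. Within groups the members moved together: all 7 were highest in replicate 1 of Prep-/- M1 and lowest in its replicate 2, 6 of 7 were highest in replicate 1 of Prep-/- M0, and all 7 were highest in replicate 3 of Prep+/- M0.

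Genes can be compared with each other only per length, for which FPKM over the exons of each gene was used (GENCODE vM39, all transcripts of a gene merged). In Prep+/- M0, Ifi207 was the most abundant PYHIN mRNA at 27.0 ± 3.65 FPKM, followed by Mndal at 11.9 ± 1.18 and Ifi204 at 11.3 ± 1.76. Aim2 stood at 4.49 ± 0.192 and Ifi205 at 0.164 ± 0.0537 FPKM (SD, n = 3 each). After LPS the order turned over. In Prep+/- M1, Ifi204 led at 128 ± 7.77 FPKM, then Ifi211 at 104 ± 3.69 and Ifi209 at 70.8 ± 5.79, then Ifi207 at 37.0 ± 3.19, while Aim2 ranked 11 of 13 at 4.48 ± 0.403. The same genes led in Prep-/- M1, at 202 ± 58.7 FPKM for Ifi204, 196 ± 57.9 for Ifi211 and 177 ± 63.1 for Ifi209, whose libraries overlapped. In both M2 groups Ifi207 and Ifi204 were again the first and second, at 25.2 ± 2.23 and 17.7 ± 4.45 FPKM in Prep+/- and at 31.1 ± 0.94 and 23.4 ± 3.40 FPKM in Prep-/- BMDMs. The merged exons of Ifi213, Ifi214, Ifi203 and Aim2 are long, at 9214, 8107, 7591 and 6574 bases, which lowers their FPKM. Ifi205 and Mndal have 4272 and 4100 merged bases against 1763 and 2152 in their longest coding transcript, whereas Ifi207 has 3654 in both. Ranks between genes can therefore depend on the merging.

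To ask what loss of Prep changed in resting macrophages, Prep-/- and Prep+/- BMDMs were compared in M0. Of the 7 members, 6 were higher in Prep-/- BMDMs and none was lower. A gene was called when the adjusted p of edgeR's quasi-likelihood test was under 0.05 and the fold change over 1.5, which held for 15.4% of all genes tested in the higher and 17.2% in the lower direction. Ifi205 was 6.68-fold higher (log2 fold change 2.74 ± 0.49 SE, edgeR adjusted p = 0.000255) and Ifi209 was 5.46-fold higher (log2 fold change 2.45 ± 0.31 SE, edgeR adjusted p = 1.25e-05). Ifi211, Ifi203 and Ifi204 were 3.14-fold, 3.13-fold and 3.10-fold higher, with log2 fold changes of 1.65, 1.65 and 1.63 and standard errors of 0.30, 0.24 and 0.23 (edgeR adjusted p = 0.000278, 4.40e-05 and 4.03e-05). Ifi207 was 1.61-fold higher (log2 fold change 0.69 ± 0.19 SE, edgeR adjusted p = 0.00624). Aim2 was not called, at a log2 fold change of 0.18 with a standard error of 0.13 (edgeR adjusted p = 0.272).

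The libraries of the genotypes did not overlap for these 6 members, which was so in the higher direction for 25.6% of all genes. The median log2 fold change of the 7 members was 1.65, against 0.02 over all genes tested. No member was lower at an unadjusted p under 0.05, and DESeq2 called the same numbers, 6 higher and 0 lower. Without Prep-/- M0 replicate 1, Ifi207 fell to a log2 fold change of 0.52 and was no longer called (edgeR adjusted p = 0.0419), and Ifi205 moved to 2.11. Markers of other cells moved with this comparison: the summed level of 8 granulocyte and precursor markers was 67.5 to 154 CPM in Prep-/- and 31.5 to 43.5 CPM in Prep+/- M0 with 5 of 6 tested higher, and that of 3 monocyte markers was 88.3 to 134 against 40.7 to 43.6 CPM with 2 of 3 higher. The 8 macrophage markers rose likewise, from 19000 to 22400 up to 30400 to 48200 CPM, with 6 of 8 higher. The summed B-cell markers were at 8.66 to 11.5 in Prep-/- and 3.01 to 4.79 CPM in Prep+/- M0, and the summed dendritic cell markers at 179 to 407 and 147 to 212 CPM. The part of these markers in the result was not tested.

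After LPS all 7 members were higher in Prep-/- BMDMs, including Aim2, where 12.3% of all genes tested were called higher and 10.2% lower. Ifi205 was 3.16-fold higher (log2 fold change 1.66 ± 0.33 SE, edgeR adjusted p = 0.00137), Ifi209 was 2.50-fold higher (1.32 ± 0.29 SE, edgeR adjusted p = 0.00261) and Ifi203 was 2.14-fold higher (1.10 ± 0.23 SE, edgeR adjusted p = 0.00225). Ifi211 was 1.89-fold higher (log2 fold change 0.92 ± 0.28 SE, edgeR adjusted p = 0.0169). Aim2 was 1.72-fold higher (log2 fold change 0.78 ± 0.13 SE, edgeR adjusted p = 0.000439). Ifi207 and Ifi204 were 1.70-fold and 1.58-fold higher (log2 fold change 0.77 and 0.66, standard error 0.19 and 0.23, edgeR adjusted p = 0.00537 and 0.0317). Aim2 thus had the smallest standard error and the smallest adjusted p of the members, although its fold change was among the lower ones.

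In M1 the genotypes did not overlap for any of the 7 members, as for 29.8% of all genes in that direction, and the median log2 fold change was 0.92 against 0.04 over all genes. Replicate 1 of Prep-/- M1 was the highest library for each of them. Without it, 4 of the 7 members were called: Ifi204 stood at 0.42 (edgeR adjusted p = 0.20), Ifi207 at 0.44 (edgeR adjusted p = 0.0404) and Ifi211 at 0.70 (edgeR adjusted p = 0.0967). The call for Ifi204 was also lost without Prep-/- M1 replicate 3 or without any 1 of the Prep+/- M1 libraries (edgeR adjusted p = 0.0621 to 0.0927), and that for Ifi211 without Prep+/- M1 replicate 2 (edgeR adjusted p = 0.0562). The calls of Aim2, Ifi203, Ifi205 and Ifi209 held without each library in turn. The granulocyte and precursor markers did not move with this comparison in the same way, at 50.9 to 71.4 CPM in Prep-/- and 79.0 to 145 CPM in Prep+/- M1, with none higher and 2 of 6 tested lower. The macrophage markers were at 31000 to 37000 in Prep-/- and 45800 to 47200 CPM in Prep+/- M1, with 1 of 8 higher and 1 lower. B-cell markers were higher in Prep-/- libraries, at 5.09 to 6.96 against 2.06 to 2.59 CPM with the 1 tested gene called, and their part in the result was not tested.

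In M2 no member was called in either direction, where 6.37% of all genes were called higher and 9.82% lower. The log2 fold changes were 0.52 for Ifi209, 0.43 for Ifi203, 0.41 for Ifi204, 0.35 for Aim2 and 0.30 for Ifi207, with standard errors of 0.30, 0.24, 0.23, 0.13 and 0.19 (edgeR adjusted p = 0.223, 0.204, 0.21, 0.06 and 0.253). Ifi211 and Ifi205 had negative log2 fold changes, of -0.18 and -0.40 with standard errors of 0.29 and 0.63 (edgeR adjusted p = 0.694 and 0.693). The median over the members was 0.35 against 0.03 over all genes. By edgeR's quasi-likelihood test 1 member, Aim2, had an unadjusted p under 0.05, and DESeq2 called 0 members. Aim2 and Ifi207 did not overlap between the genotypes, which held for 21.2% of all genes in that direction. Leaving out Prep-/- M2 replicate 3, the lowest of its group for 5 members, brought Ifi203 to a log2 fold change of 0.68 and a call (edgeR adjusted p = 0.0219). The replicate numbers were taken to pair the libraries in this comparison, and adding the replicate block changed no member's call.

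**Figure D2:**
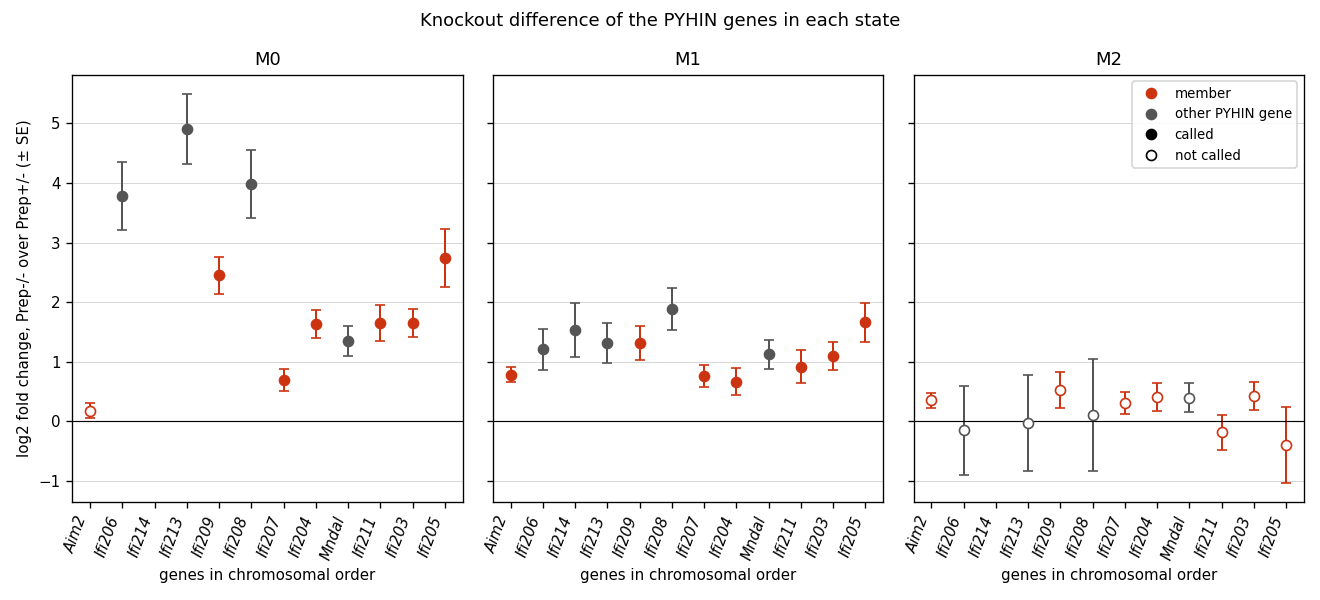
Log2 fold change of Prep-/- over Prep+/- BMDMs (± SE) in M0, M1 and M2 for the tested PYHIN genes in chromosomal order, members in red and other PYHIN genes in grey, filled where called. Ifi214 is left out in M0 and M2, where a group had 3 counts or fewer in every library. The members spread between 0.18 and 2.74 in M0, between 0.66 and 1.66 in M1 and between -0.40 and 0.52 in M2.

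Whether the knockout difference depended on the state was tested as the difference of 2 log2 fold changes in the same model. Between M2 and M0, 5 of the 7 members had a smaller knockout difference in M2 (4.13% of all genes were called lower and 4.53% higher in this test). The difference was -3.14 for Ifi205, -1.93 for Ifi209, -1.83 for Ifi211, and -1.22 for Ifi204 and Ifi203 alike, with standard errors of 0.81, 0.42, 0.42, 0.33 and 0.33 (edgeR adjusted p = 0.0232, 0.0108, 0.013, 0.0266 and 0.0307). Ifi207 and Aim2 were not called, at -0.38 and 0.17 (standard errors 0.26 and 0.18, edgeR adjusted p = 0.384 and 0.594). The calls of Ifi209 and Ifi211 held without each library in turn. The other calls each depended on single libraries: Ifi205 on Prep+/- M0 replicate 2 and Prep+/- M2 replicate 1 (edgeR adjusted p = 0.0624 and 0.0784 without them), Ifi204 on Prep+/- M0 replicates 1 and 2, Prep+/- M2 replicate 1, Prep-/- M0 replicate 1 and Prep-/- M2 replicate 3 (0.05 to 0.0863), and Ifi203 on Prep+/- M0 replicates 2 and 3, Prep+/- M2 replicates 1 and 2 and Prep-/- M0 replicate 1 (0.0531 to 0.0866). Without Prep-/- M0 replicate 1 the value for Ifi205 was -2.51.

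Between M1 and M0, 1 of the 7 members was called in each direction, close to the shares over all genes. Aim2 had a larger knockout difference in M1, by 0.605 on the log2 scale (standard error 0.18, edgeR adjusted p = 0.0242), and Ifi204 had a smaller one, by -0.97 (standard error 0.32, edgeR adjusted p = 0.0379), where 12.0% of all genes were called higher and 9.15% lower. Ifi209 lay just outside at -1.13 (standard error 0.41, edgeR adjusted p = 0.0537). Ifi205, Ifi211 and Ifi203 were at -1.08, -0.73 and -0.55 and Ifi207 was at 0.08, all not called (edgeR adjusted p = 0.196, 0.191, 0.235 and 0.851). These calls were easily moved. That for Aim2 was lost with DESeq2, with its size factors, with the compared libraries alone with or without the replicate block, and without Prep+/- M0 replicate 3, Prep+/- M1 replicate 2, Prep-/- M0 replicate 3 or Prep-/- M1 replicate 1 (log2 difference 0.442 to 0.575). That for Ifi204 was lost without Prep+/- M0 replicate 1 or 2, Prep+/- M1 replicate 2 or 3, Prep-/- M0 replicate 1, or Prep-/- M1 replicate 2 or 3 (edgeR adjusted p = 0.0635 to 0.107). Ifi209 was called with DESeq2, with its size factors, with the compared libraries alone and with the replicate block (edgeR adjusted p = 0.018 with all libraries), and also without Prep-/- M0 replicate 2 or 3 or Prep-/- M1 replicate 1 (edgeR adjusted p = 0.0188 to 0.0375).

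LPS itself raised most of the family in both genotypes. In Prep+/- BMDMs, 5 of 7 members were higher in M1 than in M0 and none was lower (16.7% of all genes were called higher and 20.9% lower). Ifi205 rose 126-fold, Ifi209 21.6-fold, Ifi211 21.2-fold, Ifi204 11.3-fold and Ifi203 3.25-fold, with log2 fold changes of 6.98, 4.43, 4.41, 3.50 and 1.70 and standard errors of 0.47, 0.33, 0.32, 0.25 and 0.24 (edgeR adjusted p = 1.59e-05 or less). Ifi207 was at 0.45 ± 0.19 SE on the log2 scale (edgeR adjusted p = 0.0518) and Aim2 at -0.01 (standard error 0.13, edgeR adjusted p = 0.975), and neither was called. The median over the members was 3.50 against -0.03 over all genes. Several marker lists moved with LPS here. The sum of the 6 dendritic cell markers went from 147 to 212 up to 1530 to 2210 CPM. Only 2 of the 6 passed the expression filter, with 1 higher, so this sum rests mainly on those 2 genes. The granulocyte and precursor markers went from 31.5 to 43.5 up to 79.0 to 145 CPM with 3 of 6 tested higher. Macrophage markers were called higher for 5 of 8 genes, and monocyte markers for 2 of 3 with 1 lower, although their sum was 40.7 to 43.6 in M0 and 37.1 to 38.2 CPM in M1. The part of these markers in the result was not tested.

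In Prep-/- BMDMs, 6 of 7 members were higher in M1 than in M0 (20.9% of all genes higher, 21.0% lower). Ifi205 rose 59.6-fold, Ifi211 12.8-fold, Ifi209 9.85-fold, Ifi204 5.77-fold and Ifi203 2.22-fold, with log2 fold changes of 5.90, 3.67, 3.30, 2.53 and 1.15 and standard errors of 0.41, 0.31, 0.31, 0.24 and 0.23 (edgeR adjusted p = 0.000502 or less). Aim2 rose 1.51-fold (log2 fold change 0.60 ± 0.13 SE, edgeR adjusted p = 0.000835), at the edge of the fold criterion. It fell under that criterion with DESeq2, with its size factors, with the compared libraries alone, without Prep-/- M0 replicate 3 (0.47) or Prep-/- M1 replicate 1 (0.40), and with the replicate block on the compared libraries (0.55, edgeR adjusted p = 0.0147), in a comparison where the replicate numbers were taken to pair the libraries. Ifi207 was at 0.53 (standard error 0.19, edgeR adjusted p = 0.0227), under the fold criterion. It was called without Prep-/- M0 replicate 1 (0.70) or Prep-/- M1 replicate 2 or 3 (0.65 and 0.59), and stood at 0.17 without Prep-/- M1 replicate 1. Leaving out Prep-/- M0 replicate 1 moved Ifi205 to 6.53. Here the granulocyte and precursor markers were lower after LPS, at 50.9 to 71.4 against 67.5 to 154 CPM with 5 of 6 lower, and the summed monocyte markers were at 25.8 to 35.3 against 88.3 to 134 CPM, with 2 of 3 called higher and 1 lower. The dendritic cell markers were at 1270 to 1470 against 179 to 407 CPM, with 1 of 2 higher, and 3 of 8 macrophage markers were higher and 1 lower. Their part in the result was not tested either.

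IL-4 and IL-13 gave another picture, which rests on the same M0 libraries as the response to LPS. In Prep+/- BMDMs no member was called in M2 against M0, where 6.09% of all genes were called higher and 6.77% lower. Ifi204 was at 0.64 ± 0.23 SE on the log2 scale (edgeR adjusted p = 0.0642). It was the only member with an unadjusted p under 0.05 and was called by DESeq2 (adjusted p = 0.0449). Ifi211 was at 0.54, Ifi205 at 0.29, Ifi209 at 0.08, Ifi207 at -0.10, Aim2 at -0.27 and Ifi203 at -0.33, with edgeR adjusted p between 0.171 and 0.885. In Prep-/- BMDMs, 4 of 7 members were lower in M2 than in M0 and none was higher (15.5% of all genes lower, 14.7% higher). Ifi205 fell 7.22-fold, Ifi209 3.59-fold, Ifi203 2.93-fold and Ifi211 2.45-fold, with log2 fold changes of -2.85, -1.84, -1.55 and -1.29 and standard errors of 0.51, 0.30, 0.24 and 0.29 (edgeR adjusted p = 0.000272, 0.000119, 6.98e-05 and 0.00194). Without Prep-/- M0 replicate 1, Ifi205 was at -2.22. Ifi204 at -0.58 and Ifi207 at -0.49 were under the fold criterion, although their edgeR adjusted p was 0.0488 and 0.0433, and Aim2 was at -0.10 (edgeR adjusted p = 0.564). Leaving out Prep-/- M0 replicate 2 or Prep-/- M2 replicate 1 made Ifi204 a call (-0.77 and -0.73), as did DESeq2, its size factors and a filter of at least 1 CPM in 3 libraries, and leaving out Prep-/- M0 replicate 3 made Ifi207 a call (-0.60). Markers fell together with the members in Prep-/- BMDMs: granulocyte and precursor markers were at 30.8 to 46.9 CPM in M2 against 67.5 to 154 in M0 with 5 of 6 lower, monocyte markers at 12.8 to 15.1 against 88.3 to 134 CPM with 2 of 3 lower, and macrophage markers at 13900 to 19600 against 30400 to 48200 CPM with 7 of 8 lower and 1 higher. The B-cell markers were at 0.959 to 4.45 against 8.66 to 11.5 CPM with the 1 tested gene lower, 1 of 4 stromal markers was lower, and 1 of 2 dendritic cell markers was higher. In Prep+/- BMDMs, where no member was called, markers shifted between M0 and M2 too. Macrophage markers were at 10000 to 12200 in M2 against 19000 to 22400 CPM in M0, with 3 of 8 lower. Monocyte markers were at 15.7 to 22.2 against 40.7 to 43.6 CPM, with 1 of 3 higher and 1 lower. Granulocyte and precursor markers were at 24.8 to 30.6 against 31.5 to 43.5 CPM, with 1 of 6 lower, and 1 of 2 dendritic cell markers was higher. What part the markers had in either result was not tested.

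**Figure D3:**
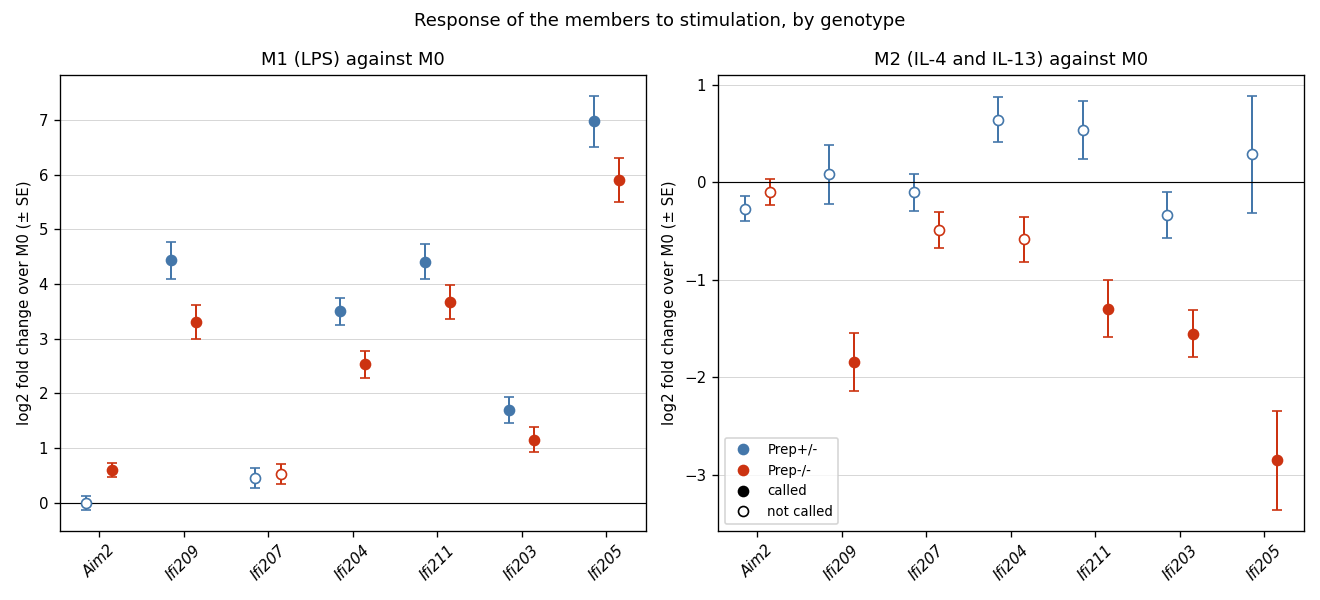
Log2 fold change (± SE) of the 7 members, M1 against M0 on the left and M2 against M0 on the right, for Prep+/- and Prep-/- BMDMs, filled where called; both panels use the same M0 libraries. In M1 the Prep+/- values reach 6.98 and the Prep-/- values 5.90, and in M2 only Prep-/- values are called, all below 0.

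Of the 5 other PYHIN genes tested, 4 were higher in Prep-/- M0 and none was lower. Over all genes, 15.4% were called higher in M0 and 12.3% in M1. Ifi206, Ifi208 and Ifi213, which are near copies of each other, with Ifi208 matching Ifi213 at 96.1% over 2808 bases and Ifi206 at 91.0% over 1618, were nearly silent in Prep+/- M0. Ifi213 had 3.86, 4.18 and 5.09 normalized counts there and 230, 102 and 74.2 in Prep-/- M0. Ifi206 had 7.72, 5.85 and 9.33 against 150, 90.4 and 79.1, and Ifi208 had 6.75, 1.67 and 10.2 against 157, 91.2 and 49.8. In M0 they were thus higher in Prep-/- BMDMs by log2 fold changes of 4.90, 3.78 and 3.98 (standard errors 0.59, 0.57 and 0.57, edgeR adjusted p = 8.82e-06, 6.40e-05 and 3.81e-05), which rest on few reads in Prep+/- BMDMs. Without Prep-/- M0 replicate 1, Ifi213 stood at 4.29. Mndal, which is near identical to parts of Ifi203, rose from 1110, 919 and 1080 to 3190, 2380 and 2340 normalized counts (log2 fold change 1.35 ± 0.25 SE, edgeR adjusted p = 0.000313).

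After LPS all 5 tested genes were higher in Prep-/- BMDMs, at log2 fold changes of 1.88 for Ifi208, 1.52 for Ifi214, 1.32 for Ifi213, 1.21 for Ifi206 and 1.13 for Mndal (edgeR adjusted p = 0.00102, 0.0156, 0.00693, 0.0128 and 0.00247). Ifi206 lost its call without Prep-/- M1 replicate 1 or Prep+/- M1 replicate 2 (edgeR adjusted p = 0.0875 and 0.058) and with DESeq2 (adjusted p = 0.136), and Ifi214 lost it without Prep-/- M1 replicate 1 or Prep+/- M1 replicate 1 or 3 (edgeR adjusted p = 0.0572 to 0.127). In M2 none of the 5 was called, none had an unadjusted p under 0.05 and DESeq2 called 0. Without Prep-/- M2 replicate 3, Mndal was at 0.65 and called (edgeR adjusted p = 0.0346). In Prep-/- M2, Ifi213 had at most 11.7 normalized counts, Ifi206 at most 21.3 and Ifi208 at most 9.58. Ifi202b had at most 2 counts in any library and was not tested.

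Between the outermost PYHIN genes no gene outside the family was tested. The nearest tested neighbours lie 718 to 787 kb below the cluster (Dusp23, Slamf8 and Vsig8) and 1566 to 1631 kb above it (Fh1, Kmo and Opn3). In M0, Kmo, Slamf8, Fh1 and Opn3 were higher in Prep-/- BMDMs, with log2 fold changes of 4.28, 2.13, 0.79 and 0.78, whereas Dusp23 and Vsig8 were at -0.02 and 0.86 and not called. In M1 none of the 6 was called, with values from -0.57 to 1.37. In M2, Kmo and Slamf8 were higher by 2.16 and 2.62. Over all genes tested, the shares called higher were 15.4% for M0, 12.3% for M1 and 6.37% for M2. At 12.3%, the lack of a call among 6 genes in M1 does not set these neighbours apart from genes elsewhere. All 7 members were called in that state, but whether this is particular to the cluster was not tested.

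Across the 18 libraries the members' log2 CPM followed each other closely, as a description of libraries that share groups and scaling. Pearson's r between members ranged from 0.642 for Ifi211 with Aim2 to 0.993 for Ifi205 with Ifi211, the pair that shares the most similar stretch of sequence. All 6 values that involve Aim2 lay between 0.642 and 0.875, with the highest for Ifi207. Outside the family, the genes most like the mean profile of the members were Ifih1, the RNA sensor MDA5 (r = 0.994), Cmpk2 (0.99), Slfn8 (0.99), Ifit2 (0.989) and Parp14 (0.987). For single members the closest genes were Trim34a for Ifi203 (0.995), Gm12250 for Ifi209 (0.995), Phf11b for Ifi205 (0.993), Parp12 for Ifi211 (0.991) and Irgm1 for Ifi204 (0.989). Ifi207 was closest to Snw1 (0.953) and Aim2 to Apobec1 (0.959), at lower values than the other members reached.

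The partners of the family were followed in 4 further lists. Over all genes tested, 15.4% were called higher and 17.2% lower in Prep-/- M0, and 12.3% and 10.2% in Prep-/- M1. In M2 these shares were 6.37% and 9.82%. Of 18 interferon-stimulated genes tested, 17 were higher in Prep-/- M0 and none was lower, with a median log2 fold change of 2.28. Gbp5, a guanylate-binding protein, was at 3.83, the antiviral genes Ifit3 and Ifit1 were at 3.75 and 3.66, and the chemokine Cxcl10 was at 3.36 (edgeR adjusted p = 0.000248 or less). In M1, 12 of 18 were higher with a median of 0.98, led by Rsad2 (3.49), Ifit2 (3.29), Cmpk2 (2.94) and Cxcl10 (2.50), and 8 were higher without Prep-/- M1 replicate 1. In M2, 4 of 18 were higher and 2 lower, with a median of -0.03. The number lower was near the share over all genes. Gbp2, Gbp5 and Ifi47 were higher there, by 3.21, 2.42 and 1.73, and Oasl1 was lower, at -1.44. Without Prep+/- M2 replicate 1 or Prep-/- M2 replicate 1 or 2, 1 gene was lower.

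Of 15 interferon signalling genes, 10 were higher in Prep-/- M0, 7 in M1 and 2 in M2, and none was lower. The median log2 fold changes were 0.77 over the 14 genes above 3 counts in M0, 0.54 in M1 and 0.32 over the 14 genes in M2. Usp18, an inhibitor of interferon receptor signalling, was at 1.79 in M0, and the transcription factors Irf1 and Irf8 were at 1.48 and 1.26. Irf1 was higher in every state, at 1.44 in M1 and 1.16 in M2. Stat2, which takes part in carrying the type I interferon signal to the ISRE, was at 0.97 in M0, at 1.31 in M1 and at 0.33 in M2, where it was not called. Ifnb1, the gene of interferon-β, had at most 2 counts in any M0 or M2 library. In M1 it had 14.8, 5.95 and 5.13 normalized counts in Prep+/- and 85.8, 11.7 and 43.1 in Prep-/- BMDMs (log2 fold change 2.41 ± 0.74 SE, edgeR adjusted p = 0.0286), with replicate 2 of Prep-/- below replicate 1 of Prep+/-. Leaving out Prep-/- M0 replicate 1 gave 7 higher genes in M0.

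Among 13 genes of cytosolic DNA sensing, 7 were higher and 2 lower in Prep-/- M0, 1 was higher in M1, and 3 were higher and 1 lower in M2. The numbers lower in M0 and M2 and higher in M1 were near or under the shares over all genes. In M0, Zbp1, a sensor of Z-form nucleic acid, was at 2.67, Irf7 at 1.89, Samhd1 at 1.27 and Sting1, the adaptor of the pathway, at 0.82. Cgas, the enzyme that senses double-stranded DNA, was lower in Prep-/- BMDMs in M0 and M2 (-1.36 and -0.98, edgeR adjusted p = 0.000131 and 0.00454) and higher in M1 (0.61, edgeR adjusted p = 0.0375). No gene of the list was called higher in M1 without any 1 of the Prep+/- M1 libraries or without Prep-/- M1 replicate 1. Without Prep-/- M1 replicate 2, 2 were higher and 1 was lower, and without Prep+/- M1 replicate 2, 1 was lower. Thus Cgas and the PYHIN members differed in direction in M0, where all 7 members had positive values.

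Of 14 inflammasome genes, which act with or beside Aim2, 9 were higher and none lower in Prep-/- M0, 4 were higher and 2 lower in M1, and 3 were higher in M2. The number lower in M1 was near the share over all genes (10.2%). Without Prep-/- M2 replicate 3 the M2 count was 6. Pycard, which encodes the adaptor ASC that Aim2 binds, was not called in any state, at 0.17 in M0, -0.20 in M1 and -0.40 in M2. Casp1, the protease of the complex, was at 0.03, 0.48 and 0.37, also not called. Gsdmd, whose product forms pores in the membrane, had log2 fold changes of 0.74, 0.25 and 0.59 in the same order, with M0 and M2 called. Mefv, Ninj1 and Nlrp1b were higher in M0, by 1.91, 1.60 and 1.11. For Mefv the genotypes overlapped there, at 389, 226 and 60.5 normalized counts in Prep-/- and 56.9, 78.5 and 43.3 in Prep+/- libraries. Il1b, the gene of a cytokine that caspase-1 matures, was higher by 2.01 in Prep-/- M0 (edgeR adjusted p = 0.00309) and lower in Prep-/- M1, at -2.26 (edgeR adjusted p = 0.000385). Its levels in the 2 states were far apart. In M0 it had 22.2, 29.2 and 20.4 normalized counts in Prep+/- and 188, 64.7 and 41.0 in Prep-/- libraries. In M1 these were 12900, 18900 and 19000 against 2040, 4320 and 4230. In M1, therefore, Aim2 and Casp4 (1.13) were higher while Nlrp3 (-1.04) and Il1b were lower.

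**Figure D4:**
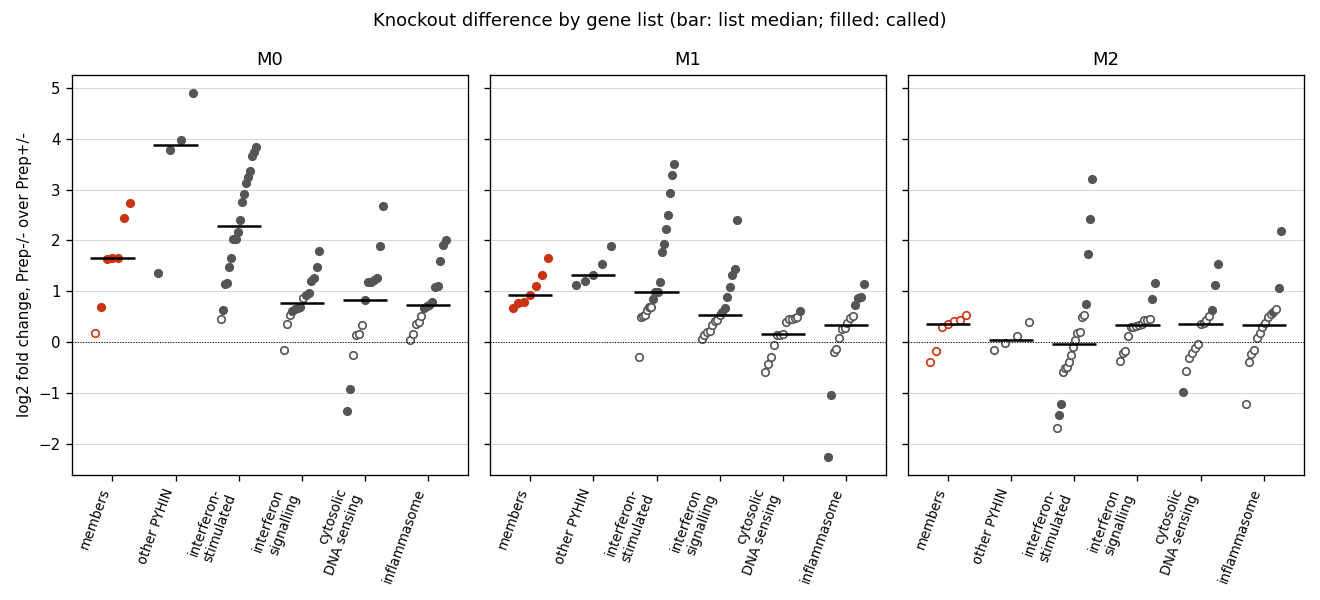
Log2 fold change of Prep-/- over Prep+/- BMDMs in M0, M1 and M2, with 1 point per gene for the members and 5 other lists, filled where called, and a bar at the list median. Genes with 3 counts or fewer in every library of a group are left out. The median of the members falls from 1.65 in M0 to 0.92 in M1 and 0.35 in M2, and that of the interferon-stimulated genes from 2.28 to 0.98 and -0.03.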

How the data were processed

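The authors trimmed reads with Trimmomatic 0.36, aligned them to GRCm39 with HISAT2 2.2.1.0 and counted them per gene with StringTie, and deposited raw counts without normalization. The annotation release, strand setting and treatment of multiply matching reads are not given in the sources used here. From these counts, genes were filtered with filterByExpr, scaled by TMM and fitted with edgeR 4.0.16 (quasi-likelihood test, limma 3.58.1, R 4.3.3) in all 18 libraries with 1 coefficient per group and Benjamini-Hochberg adjustment over 12021 genes. The call criteria were a fold change over 1.5 together with an adjusted p under 0.05. FPKM used exonic lengths of GENCODE vM39, near-identical transcripts were searched with blastn 2.17.0, and likeness was measured on log2 CPM (prior count 2) among genes of at least 1 CPM on average. All members were named whatever their test gave; of other lists, at most 4 called genes with the largest change, plus genes a sentence needs, were named. The members and lists were chosen with earlier results of these data known. Groups at 3 counts or fewer in every library got no fold change.

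On simulated counts for M0 with 200 of 11824 genes changed, the edgeR test recovered 88% of them. Of its calls there, 3.83% were unchanged genes. In the measured M0 libraries, 15.4% of the genes tested were called higher in Prep-/- BMDMs and 17.2% lower. Whether the recovery and the share of unchanged genes hold for the measured libraries was not tested. Deviations from group means correlated between same-numbered libraries over 0.1 for every number in Prep-/- against Prep+/- M2 (0.249, 0.255 and 0.462) and in M1 against M0 of Prep-/- BMDMs (0.201, 0.169 and 0.259). The numbers were taken as pairs there, from these correlations alone. Alternatives were DESeq2 1.42.0 and its size factors, other count filters, no fold criterion, the compared libraries alone, a replicate block, and each library left out in turn. No pair of replicates agreed within sampling noise, and each was counted on its own.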

Additional observations from a re-analysis of the deposited data

Results flagged for a closer look

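The knockout difference changed between states for several PYHIN genes by the test of that difference in edgeR's model, which is why they are listed here. Between M1 and M0 it was larger in M1 for Aim2, by 0.605 on the log2 scale, and smaller for Ifi204 (-0.97), Ifi206 (-2.57), Ifi208 (-2.10) and Ifi213 (-3.58), with edgeR adjusted p of 0.0242, 0.0379, 0.0135, 0.0387 and 0.00223. Between M2 and M0 it was smaller in M2 for Ifi203 (-1.22), Ifi204 (-1.22), Ifi205 (-3.14), Ifi206 (-3.93), Ifi208 (-3.87), Ifi209 (-1.93), Ifi211 (-1.83) and Ifi213 (-4.93), with edgeR adjusted p of 0.0307, 0.0266, 0.0232, 0.0195, 0.049, 0.0108, 0.013 and 0.0108.

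Ifi206, Ifi208 and Ifi213 had few reads in Prep+/- M0 and in M2, so their differences rest on low counts. Without Prep+/- M2 replicate 1, the M2 values were -2.51 for Ifi206, -3.54 for Ifi208 and -3.78 for Ifi213, and none was called (edgeR adjusted p = 0.222, 0.171 and 0.124). Ifi208 lost its M2 call without any 1 of 10 of the 12 libraries compared, Prep-/- M0 replicate 3 and Prep-/- M2 replicate 1 being the exceptions. Its M1 call was lost without Prep+/- M0 replicate 1 or 2, Prep+/- M1 replicate 1 or 3, Prep-/- M0 replicate 1, or Prep-/- M1 replicate 2 or 3 (edgeR adjusted p = 0.0539 to 0.128). Ifi206 also lost its M2 call without Prep+/- M0 replicate 2 (edgeR adjusted p = 0.0544). Without Prep-/- M0 replicate 1, Ifi213 stood at -2.97 in M1 and -4.32 in M2, both called. Leaving out other libraries moved values while the calls held: Ifi208 to -2.69 in M1 without Prep+/- M0 replicate 3, and Ifi206 to -4.77 and Ifi208 to -4.48 in M2 without Prep-/- M2 replicate 1. With the compared libraries alone, Ifi208 in M1 and Ifi206 in M2 were not called (edgeR adjusted p = 0.0553 and 0.0598).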

How the results depend on the processing

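Across the alternatives, 838 of 903 values of members stayed on their side of the threshold, 42 lost a call and 23 gained one. The sign changed in 13 values, none of which was a call in either setting; Ifi211 in M2, for example, went from -0.18 to 0.09 without Prep+/- M2 replicate 1. For the other PYHIN genes 598 of 627 stayed, 28 lost and 1 gained a call, and the sign changed in 30 values without a call, among them Ifi206 in M2, from -0.15 to 1.27 without Prep+/- M2 replicate 1. With each library left out in turn, members called higher in Prep-/- BMDMs numbered 4 to 7 in M1 and 0 to 1 in M2. In the test of M1 against M0 the larger knockout differences numbered 0 to 1 and the smaller ones 0 to 2, and in that of M2 against M0 the smaller ones numbered 2 to 5. Over all genes, M1 gave 961 to 1518 higher and 781 to 1346 lower, and the test of M2 against M0 gave 268 to 830 larger and 234 to 619 smaller differences. A fit without a library has fewer samples, which can cost calls, and the cause of the losses and gains was not tested.

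The larger knockout difference of Aim2 in M1 dropped out (0 members) with DESeq2, with its size factors in edgeR and with the compared libraries alone. The smaller ones numbered 2 under those alternatives, where Ifi209 joined. In M2 against M0 of Prep+/- BMDMs, DESeq2 and the compared libraries alone called 1 member, Ifi204. Without the fold criterion, higher genes over all genes numbered 2922 in M0, 2372 in M1 and 1394 in M2, lower genes 1998 in M1, and M2 against M0 gave 1124 higher in Prep+/- and 2657 in Prep-/- BMDMs. The compared libraries alone gave 252 larger and 310 smaller knockout differences over all genes in M2 against M0.

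With the replicate block in all libraries, the smaller knockout differences in M1 against M0 numbered 3 members and M2 against M0 in Prep+/- BMDMs called 1. With the block on the compared libraries alone, these were 2 and 1, the larger differences 0, and over all genes 306 differences were larger in M2 than in M0 and 1143 genes were lower in M2 against M0 of Prep-/- BMDMs. Where the numbers were not taken as pairs, the libraries share only a number: in M0 the correlations of the knockout comparison were -0.107, -0.0393 and -0.315. In the comparisons where the numbers were taken as pairs, which the labels do not state, the block changed no member's call but that of Aim2 in M1 against M0. Depth limits Ifi205, Ifi206, Ifi208 and Ifi213 outside M1, where a few reads set the fold change, and Ifi202b, which had at most 2 counts.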
